A study of Mus musculus with 10 samples.

Results

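Expression of 10 mouse genes of cell-intrinsic immunity was followed across 5 cell lines: the interferon-induced transmembrane genes Ifitm1, Ifitm2 and Ifitm3, the MHC class I genes B2m, H2-K1, H2-D1, Tap1, Tapbp and Psmb8, and the pattern receptor gene Nod1. Every probe that the platform annotation paired with 1 of these symbols was taken, which gave 16 of the 25697 probes on the array, and probes of a gene were kept apart. The genes were chosen by name, with earlier results of these data known.

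RNA was measured on 10 single-colour Illumina mouse BeadChips, a bead array that reads the brightness of labelled RNA bound to each probe. There were 5 lines with 2 arrays each. Of the neural stem cell lines, fNSC is female and pNSC parthenogenetic. Of the pluripotent lines, fESC are embryonic stem cells of a female, labelled OG2 and titled fESC-B, pESC-B are embryonic stem cells of parthenogenetic origin that were sorted by SSEA-1, a surface antigen, and piPS-2F were induced from parthenogenetic neural stem cells that overexpressed Oct4 and Klf4. Parthenogenetic cells descend from an activated egg and carry maternal chromosomes only. The study made pluripotent cells from parthenogenetic neural stem cells, and the arrays set them beside the cell type they came from and beside embryonic stem cells. For piPS-2F replicate 2, 1 label names Klf5 where its other labels name Klf4. Only pESC-B is described as sorted, and mouse strain, age, clone number and culture conditions are not given in the sources used here. The study description speaks of 5 samples in duplicate, so the p-values measure only the spread between duplicate arrays, which may be technical.

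IFITM proteins are small membrane proteins that hinder the entry of enveloped viruses into cells. Their genes are interferon targets, and in the mouse several of them are also expressed in germ cells and early embryonic cells without infection. MHC class I molecules display peptides from inside the cell to cytotoxic T cells: a heavy chain (H2-K1 or H2-D1) pairs with beta-2-microglobulin (B2m), the transporter subunit Tap1 carries peptides into the endoplasmic reticulum, Tapbp (tapasin) helps load them, and Psmb8 is a catalytic subunit of the immunoproteasome that makes them. Nod1 is a cytosolic sensor of bacterial cell wall peptides that signals to NF-kappa B. Early embryonic and pluripotent cells are known for low class I surface levels and weak interferon responses.

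The array level is given as log2 signal, which is the intensity after background correction, addition of an offset of 16, quantile normalization and log2. A probe counts as detected on an array at a detection p under 0.01. Levels are compared between lines for the same probe and never between probes. The 6 pluripotency markers (Pou5f1, Nanog, Zfp42, Dppa5a, Esrrb and Tdgf1) were all detected on both arrays of piPS-2F, pESC-B and fESC, and their summed intensity was 37840 to 72380 there against 107.7 to 311.8 in the neural lines. The summed intensity of 6 neural stem cell markers (Nes, Fabp7, Slc1a3, Gpm6a, Olig1 and Pax6) was 72430 to 75230 in the neural lines and 306.3 to 2203 in the pluripotent lines. Pax6 was detected on no array, and the other 5 on both arrays of each neural line. Nes and Slc1a3 were detected on all 10 arrays, and Olig1 on both arrays of pESC-B and fESC and on 1 of piPS-2F. Arrays detected between 9938 and 11837 probes, and the mean intensity was 287.0 to 326.6 on the piPS-2F and pESC-B arrays and 476.2 to 625.0 on the others. The number of arrays limits the precision.

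Of the 16 probes, 10 were detected on both arrays of at least 1 line and entered the test; they stand for 8 genes. The other 6 were Ifitm1 probes ILMN_1245129 and ILMN_2640765, B2m probe ILMN_2670561, H2-K1 probe ILMN_2634603 and the Psmb8 probe, all detected on 0 of 10 arrays, and the Tap1 probe, detected on fNSC replicate 1 and piPS-2F replicate 1. For B2m and H2-K1 a silent probe therefore stood beside a bright one annotated to the same gene. For Ifitm1 both ILMN_1245129 and ILMN_2640765 were silent beside a bright one. Class I heavy chains are a family of similar genes, probe sequences were not used here, and binding of related transcripts to the H2 probes was not tested.

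The promoters of the Ifitm genes, B2m and H2-K1 are shown because they differ in which of the named control motifs they hold, if any. Each sequence runs 5′ to 3′ on the gene's own strand, 250 bases before to 50 after the RefSeq start on GRCm38.p6. Capitals mark letters matching, on either strand, the core of the interferon-stimulated response element (GAAA, any 2 bases, GAAA), the gamma-activated site (TTCNNNGAA), a kappa B motif (GGGGNTTCC) or the inverted CCAAT box (ATTGG). The windows are chr7:140967826-140968125 on the plus strand for Ifitm1, chr7:140955912-140956211 on the minus strand for Ifitm2, chr7:141010695-141010994 on the minus strand for Ifitm3, chr2:122147437-122147736 on the plus strand for B2m and chr17:34000298-34000597 on the minus strand for H2-K1.
Ifitm1: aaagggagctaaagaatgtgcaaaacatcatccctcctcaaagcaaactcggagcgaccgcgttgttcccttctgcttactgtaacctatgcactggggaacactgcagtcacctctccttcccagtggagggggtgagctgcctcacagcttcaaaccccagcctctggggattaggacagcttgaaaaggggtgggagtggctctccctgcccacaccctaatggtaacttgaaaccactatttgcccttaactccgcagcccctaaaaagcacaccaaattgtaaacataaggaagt
Ifitm2: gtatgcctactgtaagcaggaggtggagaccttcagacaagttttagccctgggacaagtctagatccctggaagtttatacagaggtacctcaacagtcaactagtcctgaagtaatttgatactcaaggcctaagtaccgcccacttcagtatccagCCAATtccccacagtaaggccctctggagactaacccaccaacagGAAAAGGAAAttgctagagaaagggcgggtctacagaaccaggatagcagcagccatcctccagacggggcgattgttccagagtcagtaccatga
Ifitm3: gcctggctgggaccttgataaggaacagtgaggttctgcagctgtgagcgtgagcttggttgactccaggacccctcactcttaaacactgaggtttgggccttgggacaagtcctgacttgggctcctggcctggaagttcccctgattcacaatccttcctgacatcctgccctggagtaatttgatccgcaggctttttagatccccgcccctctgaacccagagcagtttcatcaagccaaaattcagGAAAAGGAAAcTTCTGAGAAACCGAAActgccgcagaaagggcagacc
B2m: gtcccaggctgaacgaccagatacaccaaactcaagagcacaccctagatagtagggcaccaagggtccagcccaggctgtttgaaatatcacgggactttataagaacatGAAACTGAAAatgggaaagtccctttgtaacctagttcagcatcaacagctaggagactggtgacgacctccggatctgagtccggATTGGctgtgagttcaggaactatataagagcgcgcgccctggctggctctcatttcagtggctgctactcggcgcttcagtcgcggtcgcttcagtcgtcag
H2-K1: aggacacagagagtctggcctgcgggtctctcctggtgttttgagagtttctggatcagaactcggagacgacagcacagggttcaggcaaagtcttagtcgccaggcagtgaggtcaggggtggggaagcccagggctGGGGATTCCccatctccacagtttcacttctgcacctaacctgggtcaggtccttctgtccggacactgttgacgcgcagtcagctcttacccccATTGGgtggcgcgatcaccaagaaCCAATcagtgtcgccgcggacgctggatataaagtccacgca

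The response element core stood 46 bases before the start in Ifitm2 and 139 bases before it in B2m. In Ifitm3 it occurred at positions 3 to 12 and 20 to 29 counted from the start, with a gamma-activated site at positions 14 to 22 that overlaps the second copy. The Ifitm1 window held none of the 4 motifs. H2-K1 and H2-D1 held the kappa B motif, 111 and 171 bases before the start. Of the 10 genes, 3 held the response element core, 2 the gamma-activated site, 2 the kappa B motif and 7 the CCAAT box in the window of the first listed start. Among the first listed windows of 27025 genes, of the same length, these shares were 3.49%, 8.47%, 1.67% and 37.9%. The second listed start of Nod1 had a gamma-activated site 193 bases before it. A match is a description of letters, not evidence that a factor binds there. Only these exact patterns were searched, so a window without a match, such as H2-K1 for the response element core, may still hold a variant of the element.

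Ifitm3 separated pNSC from every other line. Its log2 signal was 13.29 and 13.28 on the fNSC arrays, 6.45 and 6.55 on the pNSC arrays, 12.45 and 12.80 in piPS-2F, 12.55 and 12.25 in pESC-B and 12.18 and 12.12 in fESC. Both pNSC arrays lay far below the other 8, and the probe was detected on all 10. In intensities before any normalization of this work, pNSC read 126 and 139 where fNSC read 10982 and 10672. The difference pNSC minus fNSC was -6.79 ± 0.16 (log2 ± SE, adjusted p = 7.3e-09), a 110.0-fold lower level in the parthenogenetic neural cells. In bulk RNA a smaller share of expressing cells and less RNA per cell cannot be told apart.

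Both parthenogenetic pluripotent lines had high Ifitm3. It was 69.8-fold higher in piPS-2F than in pNSC (6.12 ± 0.16, adjusted p = 7.3e-10) and 59.6-fold higher in pESC-B than in pNSC (5.90 ± 0.16, adjusted p = 8.5e-10). Between the female lines the order was the opposite, with fESC below fNSC, at -1.14 ± 0.16 (2.2-fold, adjusted p = 9.6e-05). The order of the means was fNSC 13.29, piPS-2F 12.62, pESC-B 12.40, fESC 12.15 and pNSC 6.50. Neither neighbouring pair among the pluripotent lines passed the test: piPS-2F minus pESC-B was 0.23 ± 0.16 (adjusted p = 0.33), and pESC-B minus fESC was 0.25 ± 0.16 (adjusted p = 0.21). The remaining pair, piPS-2F minus fESC, was 0.48 ± 0.16 (adjusted p = 0.028), under the 2-fold minimum of a call.

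Ifitm2, which lies near Ifitm3 on chromosome 7, was low in the same line. Its log2 signal was 12.20 and 12.60 in fNSC, 8.76 and 8.76 in pNSC, 12.50 and 12.38 in piPS-2F, 12.50 and 12.46 in pESC-B and 12.71 and 12.75 in fESC. The pNSC arrays were again the lowest, although the gene stayed well detected there. It was 12.4-fold lower in pNSC than in fNSC (-3.64 ± 0.15, adjusted p = 1.9e-07), 12.8-fold higher in piPS-2F than in pNSC (3.68 ± 0.15, adjusted p = 1.2e-08) and 13.2-fold higher in pESC-B than in pNSC (3.72 ± 0.15, adjusted p = 1.2e-08). The female lines differed by 0.33 ± 0.15 (fESC minus fNSC, adjusted p = 0.075). The pluripotent lines differed from each other by at most 0.29 in size (piPS-2F minus fESC, -0.29 ± 0.15, adjusted p = 0.14).

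Ifitm1 was detected in the pluripotent lines only. Its bright probe, ILMN_2814484, was not detected in either neural line, at 4.43 to 4.53. It read 7.76 and 7.47 in piPS-2F, 8.06 and 8.42 in pESC-B and 9.83 and 9.82 in fESC. All 6 pluripotent arrays stood above all 4 neural arrays, and fESC above the parthenogenetic lines. The Ifitm1 results rest on ILMN_2814484 alone, as the other Ifitm1 probes were detected on no array of any line. The gene was higher than in pNSC by at least 4.27-fold in piPS-2F (adjusted p = 4.1e-08) and by at least 6.6-fold in pESC-B (adjusted p = 1.3e-08), and it was at least 21.9-fold higher in fESC than in fNSC (adjusted p = 1.6e-09). These lower bounds set the bright line against whichever was higher on each array, the dim probe itself or the dimmest probe detected there.

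Among the pluripotent lines Ifitm1 was lower than in fESC by 4.64-fold in piPS-2F (-2.21 ± 0.16, adjusted p = 2.7e-06) and by 3.0-fold in pESC-B (-1.58 ± 0.16, adjusted p = 2.1e-05). The gap between piPS-2F and pESC-B was -0.63 ± 0.16 (adjusted p = 0.015), under the 2-fold minimum of a call. The other Ifitm genes on the array gave no further information: Ifitm5 was detected on 1 of 10 arrays, Ifitm6 and Ifitm10 on 0, and none was tested.

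**Figure D1:**
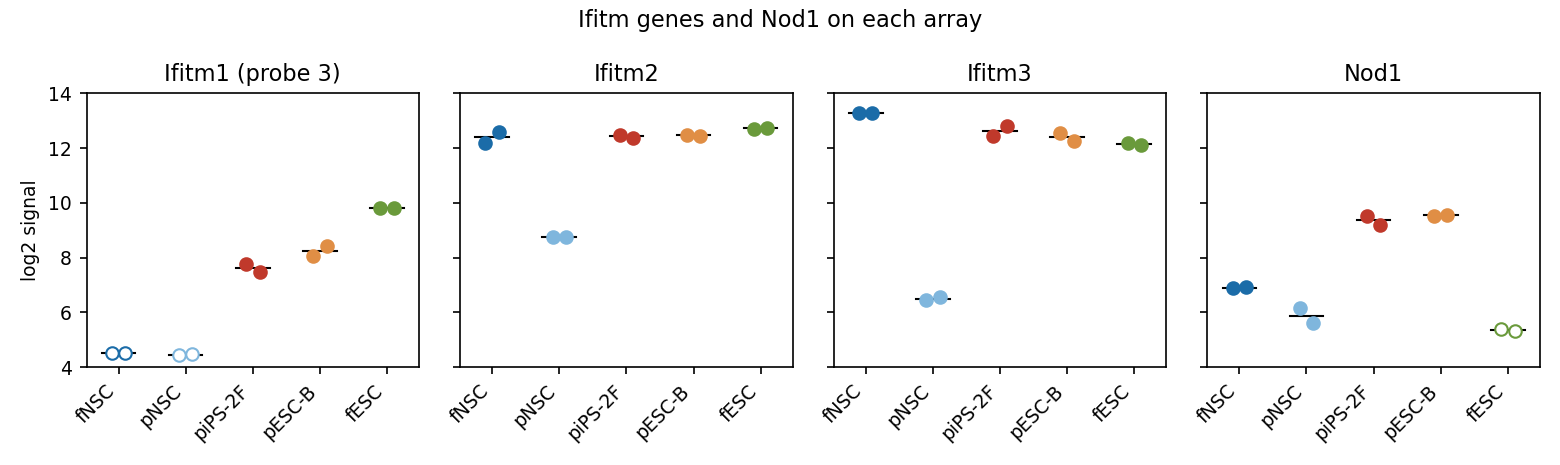
Log2 signal of Ifitm1 (probe ILMN_2814484), Ifitm2, Ifitm3 and Nod1 on each of the 10 arrays by line, with filled points for arrays where the probe was detected, open points where it was not, and a bar at the mean of 2 arrays. The pNSC points of Ifitm3 lie at 6.45 and 6.55 against 12.12 to 13.29 elsewhere, Ifitm1 is detected in the pluripotent lines only, and Nod1 is highest in piPS-2F and pESC-B.

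The 3 Ifitm genes lie next to each other in the order Ifitm2, Ifitm1, Ifitm3, and the nearest tested genes on either side were set beside them, a comparison chosen after the values were seen. In pNSC minus fNSC, 0 of 8 flanking genes passed the limma test, against 11.3% of all genes, and 2 had an unadjusted p under 0.05. Their differences ran from -0.46 (Pgghg) to 0.40 (Sirt3, a mitochondrial deacetylase gene), against -3.64 for Ifitm2 and -6.79 for Ifitm3. In piPS-2F minus pNSC, where 53.4% of all genes were called, the same flank was mixed: Ano9 at 3.02 ± 0.19 and Sigirr at 2.36 ± 0.29 were higher, and Sirt3 at -1.52 ± 0.15 and Pgghg at -1.33 ± 0.20 were lower.

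**Figure D2:**
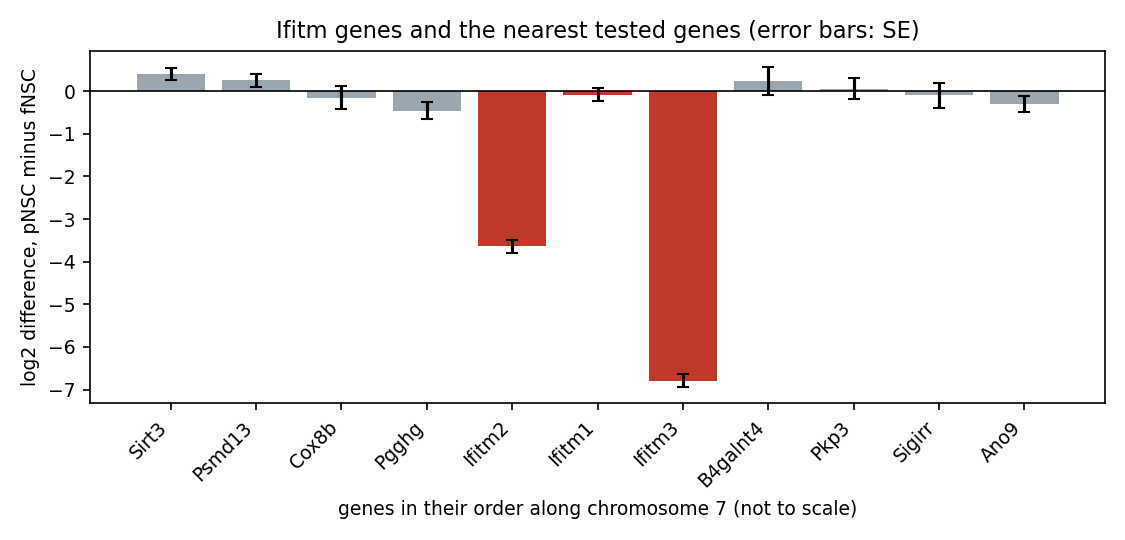
Log2 difference pNSC minus fNSC (bars, with SE) for the Ifitm genes in red and the nearest tested genes in grey, in their order along the chromosome. Ifitm3 stands at -6.79 and Ifitm2 at -3.64, Ifitm1 was undetected in both lines, and the 8 flanking genes stay between -0.46 and 0.40.

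B2m, the light chain shared by all class I molecules, was lower in every pluripotent line than in either neural line. Probe ILMN_1216746 read 11.72 and 11.72 in fNSC, 11.23 and 11.17 in pNSC, 8.43 and 9.01 in piPS-2F, 9.37 and 8.86 in pESC-B and 9.33 and 9.12 in fESC. Probe ILMN_2739999 read 11.69 and 11.81, 11.25 and 11.08, 8.15 and 8.55, 9.13 and 8.63, and 9.41 and 8.99 in the same order. The neural and pluripotent arrays did not overlap for either probe, and the probes correlated at Pearson's r = 1.00 over the 10 arrays.

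The first probe of B2m was 5.56-fold lower in piPS-2F than in pNSC (-2.47 ± 0.22, adjusted p = 2.4e-06), 4.23-fold lower in pESC-B than in pNSC (-2.08 ± 0.22, adjusted p = 9.5e-06) and 5.63-fold lower in fESC than in fNSC (-2.49 ± 0.22, adjusted p = 2.5e-06). The second gave 7.01-fold, 4.87-fold and 5.84-fold. Within a cell state B2m did not pass the test: pNSC minus fNSC was -0.52 ± 0.22 (adjusted p = 0.097) for the first probe, and piPS-2F minus fESC was -0.50 ± 0.22 (adjusted p = 0.073). For the second probe piPS-2F minus fESC was -0.85 ± 0.22 (adjusted p = 0.0072), under the 2-fold minimum, and it became a call at -1.18 to -1.05 with median scaling and without piPS-2F replicate 2 or fESC replicate 2.

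The heavy chain gene H2-K1 was also lower in the pluripotent lines, and it set the neural lines apart. Its detected probe, ILMN_2795520, read 7.76 and 7.64 in fNSC, 8.63 and 8.95 in pNSC, 6.54 and 6.36 in piPS-2F, 5.60 and 4.51 in pESC-B and 6.27 and 6.10 in fESC. Both pNSC arrays were above the fNSC arrays, and pESC-B was lowest, with replicate 2 undetected. H2-K1 was 5.07-fold lower in piPS-2F than in pNSC (-2.34 ± 0.29, adjusted p = 3.0e-05) and 2.86-fold lower in fESC than in fNSC (-1.51 ± 0.29, adjusted p = 7.8e-04). It was also lower in pESC-B than in pNSC (-3.74 ± 0.29, adjusted p = 9.8e-07), but 1 of the pESC-B arrays did not detect it, and the difference ran from -4.94 to -2.80 over the alternatives. It was 2.13-fold higher in pNSC than in fNSC (1.09 ± 0.29, adjusted p = 0.017), a call lost in 6 of 18 alternatives at 0.93 to 1.21.

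Its calls among the pluripotent lines rest on 1 array. Against pESC-B, piPS-2F had 2.63-fold more H2-K1 (1.39 ± 0.29, adjusted p = 0.0056) and 2.19-fold less of it was found in pESC-B than in fESC (-1.13 ± 0.29, adjusted p = 0.0069). Both calls were lost without pESC-B replicate 2, the array on which the probe was undetected, and also with an offset of 50 or median scaling, at 0.83 to 0.92 and at -0.94 to -0.59. Between piPS-2F and fESC the gene differed by 0.26 ± 0.29 (adjusted p = 0.46). H2-D1, the other heavy chain gene, was detected in fNSC alone, at 5.51 and 5.83, and read 4.49 to 5.40 on the other 8 arrays. Its difference pNSC minus fNSC was -0.94 ± 0.15 (adjusted p = 0.0011), under the 2-fold minimum, with a lower bound of 1.11-fold, and it became a call in 5 of 18 alternatives, at -1.68 to -1.0.

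The peptide supply genes among the members, Tap1, Tapbp and Psmb8, were near the limit of detection throughout. Psmb8 read 4.60 to 5.20 and was detected on no array, and Tap1 read 4.66 to 5.76 and was detected on 2 arrays. Of the Tapbp probes, ILMN_1226819 was detected on both arrays of piPS-2F (6.26 and 5.73) and pESC-B (5.76 and 5.76) and on 1 of pNSC (5.91), and ILMN_3155492 on both arrays of pNSC (5.98 and 5.69) and on 1 of fNSC. The probes went different ways: piPS-2F minus pNSC was 0.50 ± 0.30 (adjusted p = 0.15) for ILMN_1226819 and -1.36 ± 0.19 (adjusted p = 7.5e-05) for ILMN_3155492, at least 1.29-fold lower. The second call was lost with an offset of 50, at -0.70, and no direction for Tapbp can be read from the pair. At these signals a difference could not be told from background for Tap1 and Psmb8. Other peptide supply genes, named after their values were seen, were detected more widely or less. Psmb10, Psme1 and Psme2 were detected on 10 arrays, Tap2 on 7, Psmb9 on 6 and Erap1 on 1.

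**Figure D3:**
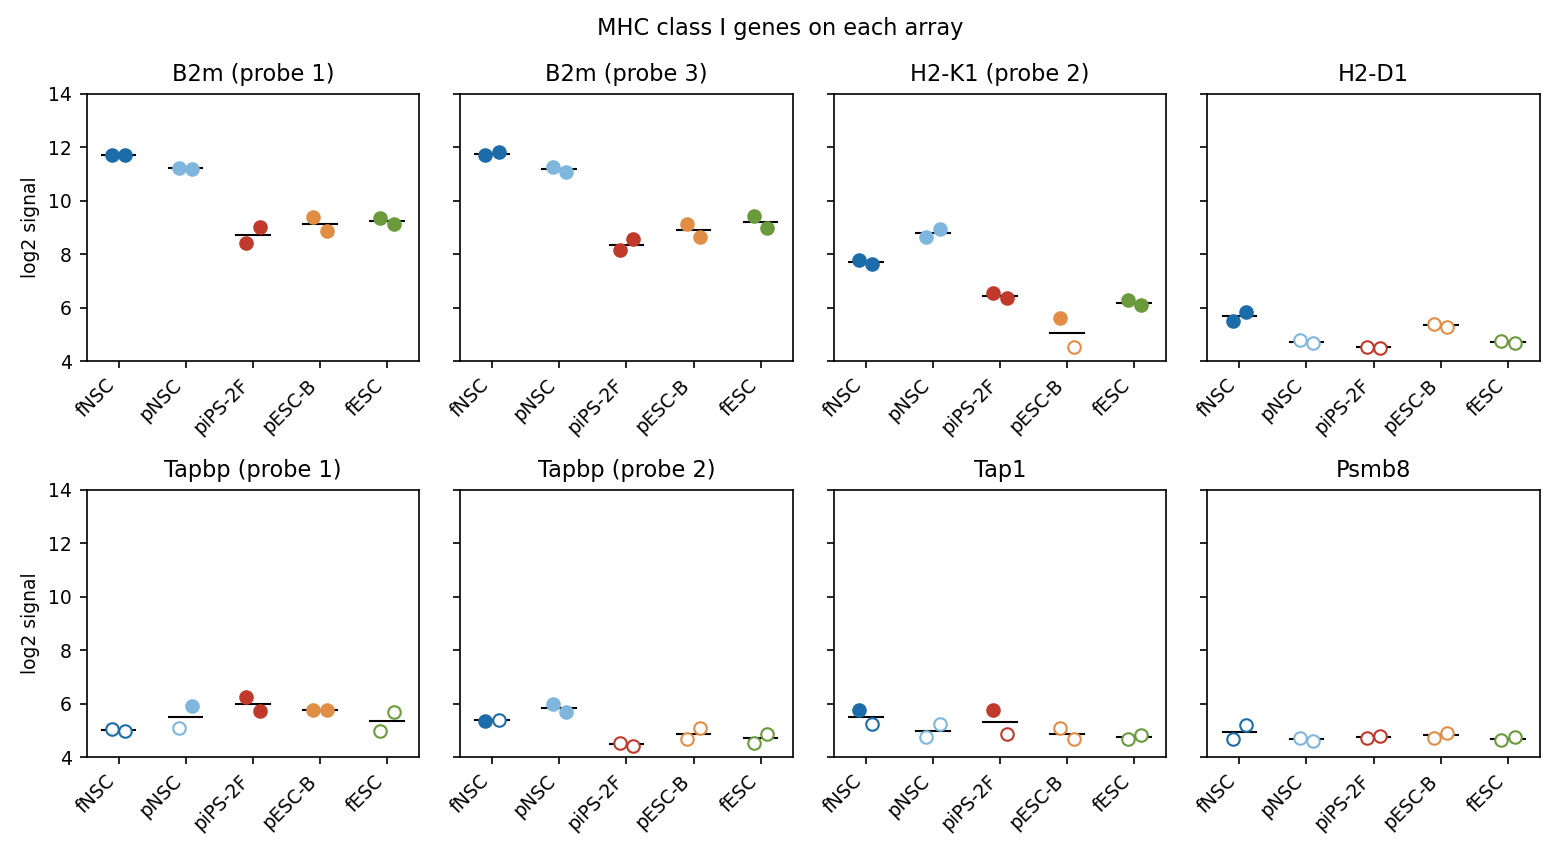
Log2 signal of the MHC class I genes on each array by line, with probes of a gene in panels of their own, filled points where the probe was detected, open points where it was not, and a bar at the mean of 2 arrays. B2m lies above 11 in both neural lines and below 9.5 in the pluripotent lines, H2-K1 is highest in pNSC, and Tap1, Tapbp, Psmb8 and H2-D1 stay near the floor.

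Nod1 was high in both parthenogenetic pluripotent lines and undetected in the female embryonic line. Its log2 signal was 6.90 and 6.91 in fNSC, 6.16 and 5.60 in pNSC, 9.51 and 9.21 in piPS-2F, 9.54 and 9.55 in pESC-B and 5.39 and 5.32 in fESC. The piPS-2F and pESC-B arrays stood above the other 6 without overlap. The fESC arrays missed detection at detection p-values of 0.0313 and 0.0426. Nod1 in piPS-2F exceeded fESC by at least 10.9-fold (4.01 ± 0.19, adjusted p = 2.7e-07) and in pESC-B by at least 12.4-fold (4.19 ± 0.19, adjusted p = 1.6e-07).

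Against the neural lines Nod1 moved in opposite directions in the parthenogenetic and the female pair. It was 11.2-fold higher in piPS-2F than in pNSC (3.48 ± 0.19, adjusted p = 6.5e-08) and 12.7-fold higher in pESC-B than in pNSC (3.66 ± 0.19, adjusted p = 5.2e-08), but at least 1.99-fold lower in fESC than in fNSC (-1.55 ± 0.19, adjusted p = 3.0e-05). The order of the means was pESC-B 9.54, piPS-2F 9.36, fNSC 6.90, pNSC 5.88 and fESC 5.35, and the first pair did not differ beyond the test (piPS-2F minus pESC-B, -0.18 ± 0.19, adjusted p = 0.51). The level in pNSC was 2.04-fold below that in fNSC (-1.03 ± 0.19, adjusted p = 0.0025), a call lost without pNSC replicate 2 or with an offset of 50, at -0.75 to -0.72. The piPS-2F and pESC-B arrays had the lowest mean intensity, yet Nod1 was brighter there before normalization too, at 319 to 501 against 24.2 to 148 on the other arrays. Among the 8 nearest tested genes on chromosome 6, 1 passed in piPS-2F minus fESC (Ggct, higher by 1.08 ± 0.15), against 23.7% of all genes, and the range was -0.66 to 1.08. In piPS-2F minus pNSC, 4 of these 8 were higher and 3 lower, against 53.4% of all genes, with a range of -4.45 to 2.49.

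**Figure D4:**
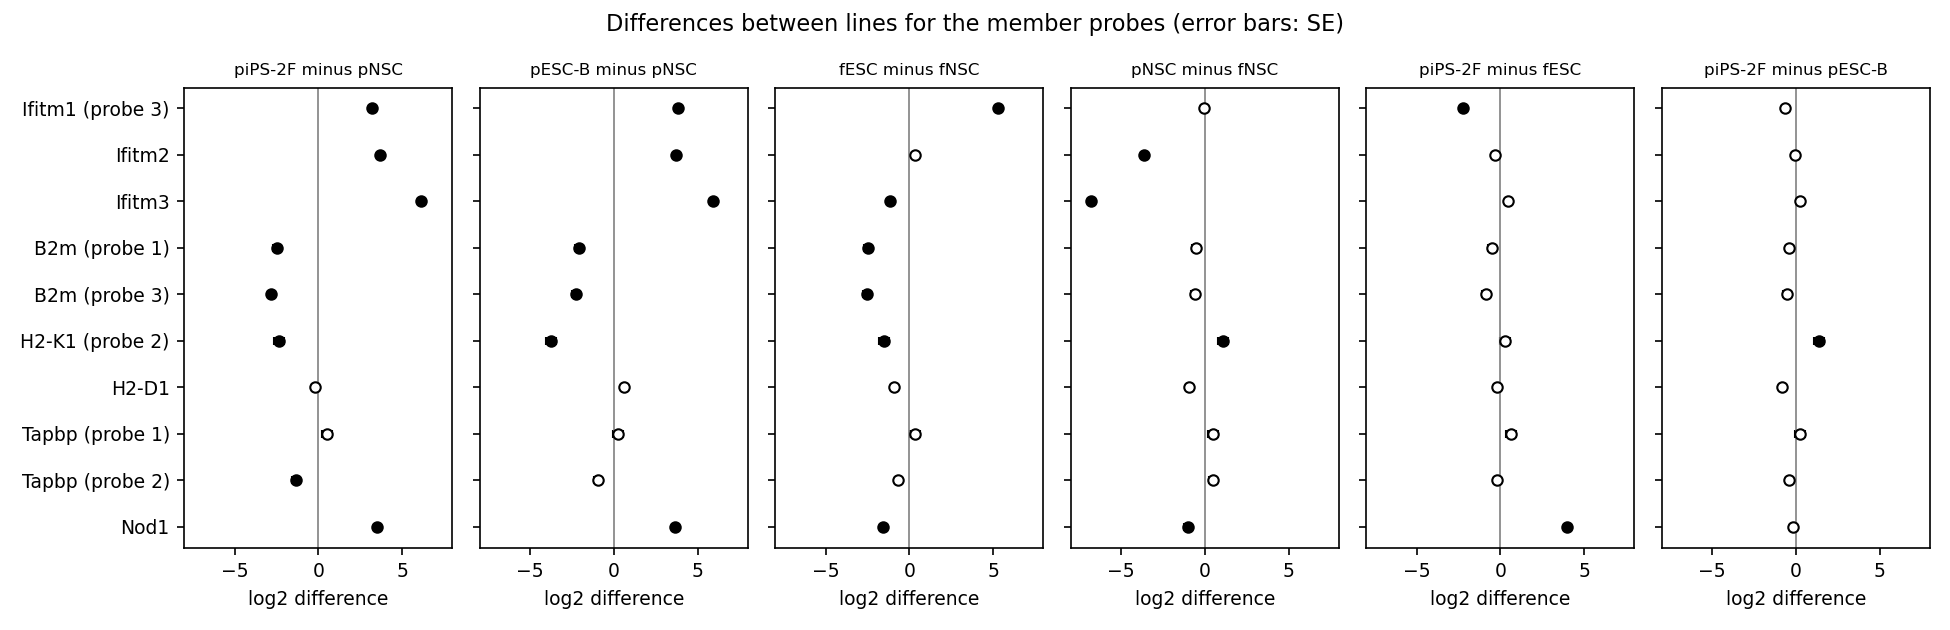
Log2 differences with SE for the 10 tested probes in 6 comparisons, with filled points for differences that passed the test and the 2-fold minimum and open points for the others. Ifitm2 and Ifitm3 lie to the right in both comparisons of a parthenogenetic pluripotent line with pNSC and to the left in pNSC minus fNSC, while B2m lies to the left in all 3 comparisons of a pluripotent with a neural line.

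A call needed a difference of 2-fold or more with adjusted p below 0.05, and the members' counts are set beside the share of all 13564 tested probes. In piPS-2F minus pNSC, 8 of the 10 member probes were called, 4 higher and 4 lower, where 52.6% of all probes were (26.8% higher and 25.7% lower). In pESC-B minus pNSC, 7 were called, 4 higher and 3 lower, against 49.8% of all probes (25.1% higher and 24.7% lower). In fESC minus fNSC, 6 were called, 1 higher and 5 lower, against 47.1% (23.5% higher and 23.6% lower). The tested probes are those detected in at least 1 line, and these counts support no pattern of the members by themselves.

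The comparisons within a cell state called fewer. In pNSC minus fNSC, 4 member probes were called (H2-K1 higher, and Ifitm2, Ifitm3 and Nod1 lower) against 11% of all probes (4.79% higher and 6.24% lower). In piPS-2F minus pESC-B, 1 was called (H2-K1) against 9.12% (4.47% higher and 4.65% lower). In piPS-2F minus fESC, 2 were called (Nod1 higher and Ifitm1 lower) against 24.9% (11.9% higher and 13% lower). In pESC-B minus fESC, 3 were called (Nod1 higher, Ifitm1 and H2-K1 lower) against 27.4% (13.6% higher and 13.8% lower). Comparisons that share a line share its arrays and are not independent of each other. The members were chosen with earlier results of these data known, so these counts too support no pattern of the members by themselves.

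Whether the pluripotent-minus-neural difference itself differed between the parthenogenetic and the female lines was tested with interaction contrasts. Line and origin cannot be told apart in them. For piPS-2F minus pNSC against fESC minus fNSC, 4 member probes were called, 3 higher (Ifitm2, Ifitm3 and Nod1) and 1 lower (Ifitm1), against 28.5% of all probes (13.9% higher and 14.5% lower). For pESC-B minus pNSC against fESC minus fNSC, 6 were called, 4 higher and 2 lower, against 29.7% (14.8% higher and 14.9% lower). B2m was not among them: its first probe gave 0.02 ± 0.31 (adjusted p = 0.97) with piPS-2F and 0.41 ± 0.31 (adjusted p = 0.30) with pESC-B. The female difference used for both contrasts is the same. Because of how the members were chosen, the interaction counts support no pattern of the members by themselves either.

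Some further genes of the class I pathway were lower in a pluripotent line than in a neural line and some higher, not always in every pair. Of 40 genes listed for it (other heavy chains, proteasome subunits, chaperones, regulators and also H2-Ke6), 36 had a probe and 25 were tested, each by its brightest tested probe. In piPS-2F minus pNSC, 4 were higher and 6 lower, where 27% and 26.4% of all 9220 genes were, 53.4% in either direction. The nonclassical heavy chain gene H2-T23 was lower, at -2.67 ± 0.18. So was the endoplasmic reticulum chaperone gene Hspa5, at -2.68 ± 0.26, although 1 of the piPS-2F arrays did not detect it. H2-Ke6, a steroid dehydrogenase gene of the MHC region with no role in presentation, was lower at -2.88 ± 0.13. H2-Ke6 is also among the lower genes counted in pESC-B minus pNSC and in fESC minus fNSC. Nfyb, a subunit of the factor that binds CCAAT boxes, was higher by 2.63 ± 0.13. H2-T23 and Hspa5 were also called lower in pESC-B minus pNSC, but not in fESC minus fNSC. Their means there were 8.16 in fESC and 8.01 in fNSC for H2-T23, and 9.24 and 8.4 for Hspa5.

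In fESC minus fNSC, 3 of the 25 were higher and 4 lower, against 23.9% and 24.8% of all genes, 48.6% in all. Tap2, the partner of Tap1 in the peptide transporter, was at least 3.06-fold lower, and Cd1d1, a lipid-presenting relative of class I heavy chains, at least 5.18-fold lower. Of the 3 higher genes, Nfyb had the largest difference, at 1.81 ± 0.13. In pESC-B minus pNSC, 2 were higher and 6 lower (26.1% and 25.1% of all genes, 51.2% in all), with Cd1d1 at least 6.99-fold lower and the heavy chain gene H2-T10 at least 3.07-fold lower. In pNSC minus fNSC, 1 passed, H2-T10, at least 3.41-fold higher in pNSC, against 11.3% of all genes in either direction. The class I transactivator gene Nlrc5, named after its values were seen, was detected on no array.

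Among the pluripotent lines, the heavy chain gene H2-Q7 was detected in piPS-2F on both arrays and in neither embryonic line. Its level there was at least 2.31-fold that of pESC-B (adjusted p = 8.0e-05) and at least 1.76-fold that of fESC (adjusted p = 1.3e-05). In the first of these comparisons 2 of the 25 genes were higher and 2 lower, against 4.5% and 4.95% of all genes. Psmb5, the proteasome subunit gene whose product Psmb8 replaces in the immunoproteasome, was lower in piPS-2F than in pESC-B, at -1.76 ± 0.20, and than in fESC, at -2.43 ± 0.20. In piPS-2F minus fESC 3 were higher and 4 lower, against 11.5% and 12.2% of all genes, 23.7% in all.

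Genes of interferon signalling and interferon-stimulated genes were set beside the Ifitm genes because the latter are interferon targets. Of 45 listed, 43 had a probe and 30 were tested. In pNSC minus fNSC, 2 were higher and 3 lower (5.11% and 6.24% of all genes), with a median difference of -0.23 against 0.02 over all genes. Ifi27 was lower, at -2.61 ± 0.27 and the cytokine feedback gene Socs3, at -1.35 ± 0.13, while Ly6e was higher by 2.37 ± 0.19 and the guanylate-binding protein gene Gbp3 by 1.55 ± 0.36. The call of Gbp3 was lost without fNSC replicate 1 and with the authors' processed values, at 1.52 to 1.67.

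In piPS-2F minus pNSC, 15 of the 30 were higher and 7 lower, against 27% and 26.4% of all genes, with a median of 1.01 against 0.03. With median scaling these counts were 11 and 8 and the median was 0.44, where all probes shifted to a median of -0.46. Irf1, a transcription factor of the interferon response, was higher by 2.92 ± 0.16. Irf2, often an antagonist of Irf1, was lower, at -4.01 ± 0.26, the kinase gene Jak2, at -3.10 ± 0.22 and Gbp3, at -4.22 ± 0.36. In pESC-B minus pNSC, 9 were higher and 9 lower (26.1% and 25.1% of all genes). In fESC minus fNSC, 9 were higher and 11 lower (23.9% and 24.8%). There Ly6e was higher by 3.72 ± 0.19 and Ifi27 lower, at -4.80 ± 0.27, although 1 of the fESC arrays did not detect Ifi27.

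Between the pluripotent lines, 7 of the 30 were higher and 1 lower in piPS-2F than in pESC-B, against 4.5% and 4.95% of all genes. Ly6e was higher by 2.51 ± 0.19, Ifi27 by 1.95 ± 0.27, the antiviral gene Ifit3 at least 2.44-fold and Usp18, which removes the ISG15 modifier from proteins, at least 2.08-fold. In piPS-2F minus fESC, 11 were higher and 5 lower, against 11.5% and 12.2% of all genes, and with median scaling 7 and 5. The interferon gamma receptor chain gene Ifngr2 was lower than in fESC, at -3.88 ± 0.19 in piPS-2F and -4.38 ± 0.19 in pESC-B.

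Of 31 genes listed for Nod1 signalling, 25 had a probe and 19 were tested. In piPS-2F minus fESC, where Nod1 rose, 3 were higher and 2 lower, against 11.5% and 12.2% of all genes. The ubiquitin ligase gene Traf6 was higher by 1.21 ± 0.13 on the log2 scale, and the autophagy gene Atg16l1 was 2.46-fold higher (adjusted p = 1.1e-04). The kinase gene Map3k7, which acts downstream of Nod1 and its adaptor, was at least 4.69-fold lower, and Nlrx1, a mitochondrial relative of Nod1, at least 2.66-fold lower. In pESC-B minus fESC, Traf6 was higher by 1.95 ± 0.13, Rela, an NF-kappa B subunit, by 1.14 ± 0.14 and the ubiquitin ligase gene Birc2 by 1.04 ± 0.16. Map3k7 was lower, at -1.99 ± 0.23, although 1 of the pESC-B arrays did not detect it.

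In piPS-2F minus pNSC, 7 of the 19 were higher and 3 lower, against 27% and 26.4% of all genes, and with median scaling 4 and 6. Tab3, an adaptor of Map3k7, was higher by 2.56 ± 0.15 and Relb at least 3.22-fold, and Nlrx1 was at least 4.81-fold lower. In fESC minus fNSC, 2 were higher and 3 lower, against 23.9% and 24.8% of all genes, with Tab3 higher by 2.07 ± 0.15 and Rela lower, at -1.74 ± 0.14.

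The genes whose pattern over the 10 arrays was most like that of 3 members are given as a description, since 5 lines in duplicate fix such correlations. For Ifitm3 they were Ifitm2 (Pearson's r = 0.9728), the extracellular matrix gene Ecm1 (0.9725) and the deubiquitinase gene Usp1 (0.9678), all lowest in pNSC, where Ecm1 had a mean of 5.26 against 7.08 to 8.03 elsewhere. For B2m they were Slc25a20 (0.9962), Gyg (0.9945) and Plod1 (0.9922), and for Nod1 they were Mcmbp (0.9917), Nipbl (0.9843) and Zfc3h1 (0.9828), out of 10293 probes whose line means spanned at least 1. Over the same arrays Ifitm1 correlated with B2m at -0.88, and Ifitm2 with Ifitm3 at 0.97.

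Some genes listed as markers of other cells were detected in the pluripotent lines only, which does not by itself show that such cells were present. The summed intensity of 10 fibroblast markers was 556.5 to 643.0 in fNSC, 2367 to 2391 in pNSC, 4524 to 5194 in piPS-2F, 2774 to 3255 in pESC-B and 6743 to 7578 in fESC. These sums precede normalization, and the piPS-2F and pESC-B arrays had a lower mean intensity than the others. After normalization the median difference of the 6 tested fibroblast markers was 0.11 in piPS-2F minus fESC and -0.81 in pESC-B minus fESC. Col1a1 and Dcn were detected in the pluripotent lines only and Col3a1 in fESC only. Acta2, Fbln1 and Thy1 were detected on all 10 arrays, with Acta2 at 7.26 in fNSC, 8.9 in pNSC and 11.01 to 12.13 in the pluripotent lines. Col1a2, Postn and Pdgfrb were detected on no array and Lum on 1. Thy1, another of these markers, was highest in pNSC, at a mean log2 signal of 8.99 against 5.82 to 8.46 in the other lines. Of 8 microglia and blood markers with a probe, Laptm5 was detected in all 3 pluripotent lines and Aif1 in piPS-2F. C1qa was detected on 1 fNSC array and 1 piPS-2F array, and Ptprc, Itgam, Tyrobp, C1qb and Cx3cr1 on no array. Of 7 endothelial markers, Pecam1, Tek and Esam were detected in the pluripotent lines, Esam on 1 of the fESC arrays, while Cdh5, Kdr, Emcn and Tie1 were detected on no array. The part of other cells in the members' signals was not tested.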

How the data were processed

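The authors deposited a table of linear intensity per probe and array that was not normalized, with background already subtracted, as 22.94% to 28.25% of an array's values lie below 0. The same deposited table gives a detection p-value per probe and array. The authors' processed values, in another deposited table, were read as log2 from their range of 1.3 to 15.26, since their base is nowhere stated, and served as an alternative. The submitters' processing notes name BeadStudio 3.2, RMA and lumi with no order or settings. Columns named NSC-F and ESC-F were matched to the titles fNSC and fESC-B (here fESC), as the only columns of female cells of those types.

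Symbols came from the platform annotation (23978 probes with 1 symbol, 0 with several, 1719 with none), whose genome build no source used here gives. The log2 signal came from limma 3.58.1 under R 4.3.3 (neqc: background from detection p-values, offset 16, quantile normalization). A probe was kept if both arrays of some group had detection p under 0.01 (13564 of 25697). All 10 arrays entered a fit with a mean for each group (lmFit, eBayes, 5 residual degrees of freedom), with Benjamini-Hochberg adjustment over all kept probes, and the fit was tested on simulated data. In all, 7 pairwise and 2 interaction contrasts were made. Quantile normalization assumes a shared signal distribution, and the offset shrinks differences of dim probes. Promoters are RefSeq's. Replicate numbers did not pair the samples (correlations of duplicate differences between groups were -0.104 to 0.0986 over all kept probes).

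The members and lists were chosen with earlier results of these data known. Named are all members, at most the 4 largest called differences per list and comparison, the 3 genes most correlated with Ifitm3, B2m and Nod1, and markers detected in lines that should lack them or needed to check the labels. The flanking genes were added after the values were seen. Alternatives were offset, background correction, scaling, the authors' values, filter, arrays in the fit, replicate block and leaving out each array.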

Additional observations from a re-analysis of the deposited data

Results flagged for a closer look

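The results below were singled out because the difference between a pluripotent and a neural line differed between the parthenogenetic and the female lines. The test was of that difference itself, an interaction contrast with limma adjusted over all 13564 probes. Line and origin cannot be told apart in it. Values are the parthenogenetic difference minus the female difference on the log2 scale ± SE.

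Ifitm3 had the largest value among the members in both contrasts, at 7.26 ± 0.23 with piPS-2F (adjusted p = 1.2e-07) and 7.04 ± 0.23 with pESC-B (adjusted p = 2.4e-07). Ifitm2 gave 3.35 ± 0.22 (adjusted p = 5.4e-06) and 3.39 ± 0.22 (adjusted p = 3.7e-06). For both genes the size rests on the low pNSC level that the contrasts share. Nod1 gave 5.03 ± 0.26 (adjusted p = 2.2e-06) and 5.22 ± 0.26 (adjusted p = 1.4e-06), with fESC undetected. Ifitm1 went the other way, at -2.14 ± 0.23 (adjusted p = 7.8e-05) and -1.51 ± 0.23 (adjusted p = 5.0e-04), with both neural lines undetected, so that these values follow the gaps between the pluripotent lines.

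H2-K1 gave -2.22 ± 0.41 (adjusted p = 0.0016) with pESC-B, where 1 of the arrays did not detect it. H2-D1 gave 1.55 ± 0.21 (adjusted p = 2.7e-04) with pESC-B, but it was detected in fNSC alone, and the call was lost with an offset of 50, at 0.79.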

How the results depend on the processing

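Over 18 alternatives no member difference that passed the test changed sign: 1577 differences kept their side of the threshold, 16 lost a call and 27 gained one. Ifitm3 in pNSC minus fNSC ran from -7.35 to -6.33, Ifitm3 in piPS-2F minus pNSC from 5.67 to 6.67, and Nod1 in piPS-2F minus fESC from 3.21 to 4.81. The count of member probes called in piPS-2F minus pESC-B was 1, and it was 0 with an offset of 50 or median scaling and 2 without background correction or with the authors' processed values; leaving out 1 array gave 0 to 1, with 0 without pESC-B replicate 2. In pNSC minus fNSC the count of 4 became 2 with an offset of 50, and leaving out 1 array gave 2 to 5, with 2 without pNSC replicate 2. In piPS-2F minus fESC the count of 2 became 2 to 4 on leaving out 1 array, with 4 without fESC replicate 2. Beyond the calls named in the report, Tapbp and H2-D1 account for most gains, at -1.83 to -1.0 or 1.01 to 1.19. The causes were not tested. Replicate numbers do not pair the samples, and with the replicate block the counts were 8, 7, 6, 1, 2, 3 and 4 in the pairwise comparisons in the order of the report's 3 state comparisons, piPS-2F minus pESC-B, piPS-2F minus fESC, pESC-B minus fESC and pNSC minus fNSC, and 4 and 6 in the interaction contrasts, as without it.

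For the named list genes, a set of repeats added after the data were seen, 1363 values kept their call and 23 lost it, among them Traf6 in piPS-2F minus fESC with median scaling (0.91) and Birc2 in pESC-B minus fESC with an offset of 50 (0.99).

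Median scaling moved the median of all probes to -0.46 in piPS-2F minus pNSC, -0.35 in pESC-B minus pNSC and -0.19 in fESC minus fNSC. The split of higher and lower calls over all probes became 2363 and 4975 in place of 3640 and 3490, 2387 and 4518 in place of 3406 and 3355, and 2602 and 3924 in place of 3188 and 3207. It became 368 and 666 in place of 606 and 631 in piPS-2F minus pESC-B, 786 and 2104 in place of 1612 and 1763 in piPS-2F minus fESC, 1353 and 2003 in place of 1844 and 1876 in pESC-B minus fESC, 823 and 804 in place of 650 and 847 in pNSC minus fNSC, where the larger side changed, and 1218 and 2640 in place of 1889 and 1973 and 1554 and 2438 in place of 2013 and 2016 in the interaction contrasts.

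With 2 arrays a line and signals near background, differences of Tap1, Psmb8, Tapbp and H2-D1 are limited by signal, and each kind of cell is 1 line, so that line and origin cannot be told apart.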
